A study of Mus musculus with 2 samples.

Results

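Genomic imprinting was examined at 10 mouse loci, those of Snrpn, Ube3a, Kcnq1ot1, Meg3, Peg3, Grb10, Zdbf2, H19, Igf2 and Plagl1, out of 55450 genes annotated in GENCODE M21 (21951 of them protein-coding). The genes were chosen by symbol, and each locus was taken as the gene with 10 kb of flank at either end. Chromatin accessibility was measured by DNase-seq in the frontal cortex of 14-day-old B6CASTF1/J females, the F1 hybrids of C57BL/6J and CAST/EiJ. DNase I cuts open chromatin, so a peak is a site of dense cutting, and a footprint is a short stretch protected from cutting, usually within such a site. A single group of 2 libraries was available, labelled biological replicates 1 and 2, from separate biosamples that carry 1 donor label. The mark 3x in a label of both is not explained there, so pooling of animals is unknown and the spread between the libraries may be technical in part. No second tissue, treatment or genotype was labelled, and no values per allele were given, so every value below joins the maternal and paternal copies.

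An imprinted gene is expressed mainly from the copy inherited from 1 parent. The choice is set by control regions that are DNA-methylated in either the egg or the sperm and keep that mark on 1 parental copy in the offspring, while the unmethylated copy can be open chromatin. Methylated copies are bound by ZFP57, a zinc finger protein that recognises the letters TGCCGC when methylated. At the H19 and Igf2 locus, the insulator protein CTCF binds the unmethylated maternal control region and separates Igf2 from enhancers.

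Peaks fell in the windows of all 10 loci in replicate 1 (41 peaks of 93641 in that library) and of 9 loci in replicate 2 (33 of 66196). Footprints numbered 142 of 234094 and 107 of 154015, of which 117 and 92 had their midpoint in a peak. The peak strength used throughout is the authors' read-depth normalized signal, whose scale is not stated. All signals were whole multiples of a step, 0.00670 in replicate 1 and 0.00858 in replicate 2, and the median peak held 99 and 83 steps. If a step is 1 cut, replicate 1 was 1.28 times as deep, and counts are therefore given for each library. The cortical label was checked on marker promoters. A promoter peak was present in both libraries at 5 of 5 neuronal markers and 2 of 5 markers of excitatory cortical neurons (5 of 5 in replicate 1), 1 of 3 inhibitory neuron markers (3 of 3 in replicate 1) and 2 of 4 astrocyte markers. None of the 3 oligodendrocyte, 4 microglial, 3 endothelial and 6 non-brain markers had one in both, although 1, 1, 0 and 1 of them did in replicate 1 and 0, 0, 1 and 0 in replicate 2. Of all protein-coding genes 58.2% had one in both. Only the general neuronal markers stood above this share, and the counts are too small to settle the label.

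The sequences of 7 loci show what the open sites hold. Each is the mm10 (GRCm38) reference sequence, read from the RefSeq assembly GRCm38.p6 on the plus strand over the bases common to both libraries' peaks at the site, with UTR bases left out. Capitals mark bases that lay in footprints of both libraries. They are the strongest peak at the locus control region or, where no control peak was called, the strongest promoter peak. The Grb10 control peak lies in 5′ UTR and is not shown. The CAST/EiJ copy carries variants that are not in this reference.
Kcnq1ot1, chr7:143296581-143296820: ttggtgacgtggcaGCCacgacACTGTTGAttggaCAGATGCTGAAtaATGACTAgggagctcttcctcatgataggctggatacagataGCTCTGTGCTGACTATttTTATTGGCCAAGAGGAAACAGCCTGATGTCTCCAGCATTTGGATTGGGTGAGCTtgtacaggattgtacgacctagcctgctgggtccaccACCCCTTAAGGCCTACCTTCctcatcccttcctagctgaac
Snrpn, chr7:60005112-60005180: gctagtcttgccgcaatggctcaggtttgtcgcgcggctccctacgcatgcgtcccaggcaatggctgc
Peg3, chr7:6729521-6729740: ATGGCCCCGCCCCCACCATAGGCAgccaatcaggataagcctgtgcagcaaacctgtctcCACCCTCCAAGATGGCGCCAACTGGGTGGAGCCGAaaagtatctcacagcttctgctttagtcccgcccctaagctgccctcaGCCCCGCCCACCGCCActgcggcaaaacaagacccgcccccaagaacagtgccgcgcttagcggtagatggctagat
Plagl1, chr10:13090721-13090787: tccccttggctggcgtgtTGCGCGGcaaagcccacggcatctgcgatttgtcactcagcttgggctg
H19, chr7:142580681-142580860: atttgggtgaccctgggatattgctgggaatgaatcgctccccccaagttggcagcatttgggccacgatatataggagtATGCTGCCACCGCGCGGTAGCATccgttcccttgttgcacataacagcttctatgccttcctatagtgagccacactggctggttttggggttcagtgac
Ube3a, chr7:59228521-59228749: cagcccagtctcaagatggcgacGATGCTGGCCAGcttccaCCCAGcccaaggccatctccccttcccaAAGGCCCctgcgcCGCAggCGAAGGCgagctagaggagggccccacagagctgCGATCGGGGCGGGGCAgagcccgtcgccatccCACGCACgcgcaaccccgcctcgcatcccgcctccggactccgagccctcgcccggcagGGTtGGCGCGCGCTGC
Meg3, chr12:109540801-109540960: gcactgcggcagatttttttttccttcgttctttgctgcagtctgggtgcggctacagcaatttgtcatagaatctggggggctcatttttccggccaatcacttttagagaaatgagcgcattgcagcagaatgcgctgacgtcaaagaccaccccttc

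Among these, protection was densest at the Kcnq1ot1 promoter, where 119 of the 240 bases shown lay in footprints of both libraries. The Ube3a promoter had 73 of 229 and the Peg3 control peak 75 of 220. In the Snrpn and Meg3 promoter stretches shown, 0 bases were in footprints of both libraries, and at Plagl1 7 of 67 were. The 0 depends on where these stretches end, since footprints that overlapped between the libraries lay at their edge. At Snrpn these were chr7:60005183-60005208 in replicate 1 and chr7:60005178-60005190 in replicate 2. At Meg3 they were chr12:109540961-109540986 in replicate 1 and chr12:109540959-109540971 in replicate 2.

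A promoter peak was called in both libraries at 7 of the 10 imprinted genes, defined as a peak with its midpoint within 500 bp of any annotated transcription start site (TSS) of the gene. These were Snrpn, Ube3a, Kcnq1ot1, Meg3, Peg3, Grb10 and Plagl1. Replicate 1 had a promoter peak at 8 of the 10 and replicate 2 at 7, since H19 had one in replicate 1 alone, and Zdbf2 and Igf2 had none in either. The same was found for 63.2% of protein-coding genes in replicate 1, 58.6% in replicate 2 and 58.2% in both, and for 32.0%, 28.9% and 28.4% of all annotated genes. In bulk tissue, fewer cells with an open site and less opening in each cell cannot be told apart. A share of 7 in 10 genes is near that of protein-coding genes. With the 5′ end of the gene record as the only TSS the count in both libraries was 4, because the open sites of Snrpn, Grb10 and Plagl1 lie at internal start sites.

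Kcnq1ot1 and Ube3a had the strongest promoters. Kcnq1ot1, a long noncoding RNA made from the paternal copy that silences its neighbours, reached 3.98 in replicate 1 and 4.36 in replicate 2 (4.17 ± 0.263, SD, n = 2). These values stood at the percentiles 72.8 and 95.0 of all genes with a promoter peak in the same library. Ube3a, a ubiquitin ligase expressed from the maternal copy in neurons, reached 4.98 and 2.98 (3.98 ± 1.42), at percentiles 82.9 and 80.3. The ranges of these genes overlapped, so their order was not resolved, and both lay above every value of the other 8 members in the same library.

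Peg3, a paternally expressed zinc finger gene, had a promoter signal of 2.63 in replicate 1 and 1.21 in replicate 2 (1.92 ± 1.01, SD, n = 2). Grb10, which encodes an adaptor of growth factor receptors, had 2.02 and 1.38 (1.70 ± 0.449). Snrpn, which encodes a component of the splicing machinery and whose promoter is the Prader-Willi control region, had 1.61 and 1.01 (1.31 ± 0.426). Meg3, a maternally expressed noncoding RNA, had 1.46 and 0.832 (1.15 ± 0.444), and Plagl1, a paternally expressed zinc finger gene, had 1.32 and 0.755 (1.04 ± 0.399). Neighbours in this order differed by less than their spread between libraries. H19, a maternally expressed noncoding RNA, had a single weak promoter peak of 0.409 in replicate 1, at percentile 5.11.

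The median over the 7 genes with a promoter peak in both libraries was 2.02 in replicate 1 and 1.21 in replicate 2. Protein-coding genes with a promoter peak in the same library had medians of 2.69 and 1.86. In replicate 1 the 5 genes from Peg3 down to Plagl1 were below the protein-coding median, and the same 5 were below it in replicate 2. All annotated genes with a promoter peak had lower medians, 2.34 and 1.72. Peg3 was above that median in replicate 1, at percentile 54.4, and the other values of the 5 genes were below it. Kcnq1ot1 was the only one of the 7 with the higher signal in replicate 2.

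**Figure D1:**
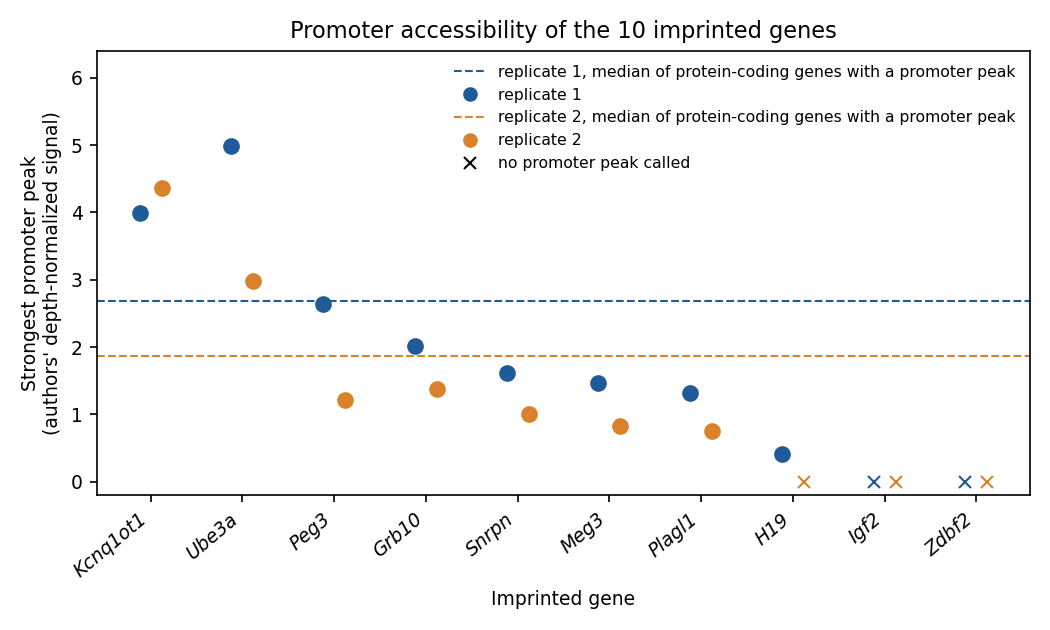
Strongest promoter peak of each of the 10 imprinted genes (horizontal axis) as the authors' depth-normalized signal (vertical axis), 1 point for each library, with crosses where no promoter peak was called and dashed lines at the median of protein-coding genes with a promoter peak. Kcnq1ot1 (3.98 and 4.36) and Ube3a (4.98 and 2.98) lie above both lines, the other 5 genes with peaks in both libraries lie below the line of their library, and Igf2 and Zdbf2 have no point.

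The open sites were placed differently around each gene. At Ube3a both peaks of each library lay within 1 kb of the gene start, at the promoter and in the 5′ UTR (1.31 in replicate 1 and 0.969 in replicate 2), and none was called elsewhere in the 82787 bp gene or its flanks. At Kcnq1ot1 the promoter peak was joined by a peak 766 bp inside the transcript with signals of 0.650 and 0.558. Its 300 bp window held 24 CpG dinucleotides in replicate 1 and 23 in replicate 2, against a median of 5 over all peaks outside promoters in each library. Another Kcnq1ot1 peak of 0.415, at 6543 bp upstream, was called in replicate 1 alone.

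Peg3 had the largest share of bases in open stretches and the most footprints of the 10 loci in each library, as given below. By peaks it was not first throughout, since Snrpn had as many or more and H19 had more per 100 kb in replicate 1. The Peg3 window held 8 peaks in replicate 1 and 7 in replicate 2 (17.2 and 15.0 per 100 kb), against protein-coding medians of 3 and 2 (5.79 and 4.40 per 100 kb). The strongest lay in an intron, 840 bp from the gene start in replicate 1 (3.95) and 800 bp in replicate 2 (1.79), at percentiles 99.1 and 91.9 of peaks outside promoters. This intron peak was stronger than the promoter peak in each library. More intron peaks outside the promoter class followed, 4 in replicate 1 (2.02 to 2.91) and 2 in replicate 2 (1.61 and 1.77). In replicate 1 one of the intron peaks is nested inside another, so the listed peaks are not all separate sites. The promoter itself is shared with Usp29, an imprinted gene read in the opposite direction, and a weak peak of 0.496 and 0.566 lay in its 5′ UTR. A peak of 0.412 on the Peg3 side of the promoter was called in replicate 2 alone. The window also takes in the promoter of Zim1, another imprinted gene, at 2.75 and 1.73.

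Snrpn had 8 peaks in each library, and the strongest of each lay at the internal TSS of the short transcripts, 135098 bp (replicate 1) and 135078 bp (replicate 2) from the 5′ end of the long gene record. Further peaks lay within the 2 kb beyond it, of which those in the control window defined below had signals of 0.569 and 0.234 in replicate 1 and 0.300 in replicate 2. Upstream stood 3 peaks that both libraries shared, at 92178 bp from the record's 5′ end (0.683 and 0.660), near 42.6 kb (0.335 and 0.369) and near 17.0 kb (0.228 and 0.274). The first of these lies at a RefSeq start of Snrpn, chr7:60047978. All 3 held the letters CGCATGCG, the core of the site of NRF1, a regulator of housekeeping and mitochondrial genes, as did the main promoter peak. This core was in 0.896% of all 300 bp peak windows in replicate 1 and 1.16% in replicate 2. The 4 sites are shown with 10 bases on each side and the core in capitals, because the flanks of the 3 upstream sites are alike.
Promoter, chr7:60005156-60005163: cggctccctaCGCATGCGtcccaggcaa
Upstream, chr7:60048042-60048049: ccttcaacgaCGCATGCGtgcatgtttg
Further upstream, chr7:60097674-60097681: cctccaatcaCGCATGCGtgcatgtttg
Farthest upstream, chr7:60123296-60123303: cttccaatcaCGCATGCGtggatgtttg

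Between the 3 upstream sites 15 to 18 of the 20 flanking bases were equal, while 5 or 6 equalled those at the promoter site. The site at chr7:60048042 lay in footprints of both libraries and the other 3 in footprints of neither, where an overlap of 1 bp counts here and below. Among RefSeq promoters (GRCm38.p6, 250 bases before to 50 after the start), all 4 of the Snrpn starts listed held the core, against 1.87% of 32851 promoters. RefSeq promoters were found for 9 of the 10 genes, all but H19.

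Grb10 and Plagl1 were open at internal start sites rather than at the first exon of the record. At Grb10 the strongest peak lay 12762 bp from the record's 5′ end in replicate 1 (2.02) and 12802 bp in replicate 2 (1.38). The 3283 bp around the upstream start sites of Grb10, where RefSeq places a promoter with 45 CpG dinucleotides in 300 bases, held no peak in either library. Weaker peaks beside the main site had signals of 0.944, 0.743 and 0.275 in replicate 1 and 0.703 and 0.386 in replicate 2. A peak in a Grb10 intron, 65122 bp from the 5′ end, had 1.49 and 1.41, at percentiles 88.2 and 86.6 of peaks outside promoters. At Plagl1 the promoter peak lay 30347 bp and 30187 bp inside the record, next to the RefSeq start at chr10:13090832, and an intron peak of 0.871 and 0.635 stood 26907 bp and 26887 bp from the 5′ end.

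The maternally expressed noncoding RNAs Meg3 and H19 had their strongest sites away from the promoter. In Meg3 a peak in a noncoding exon, 2050 bp inside the gene, reached 2.38 in replicate 1 and 1.96 in replicate 2, above the promoter in each library. It stood at percentiles 95.5 and 93.4 of peaks outside promoters. Weaker Meg3 peaks of 0.556 and 0.683 were called in replicate 1 alone. Upstream of H19, 2 peaks were called in both libraries. One at 2628 bp upstream had signals of 1.39 and 1.05, and one near 3.7 kb upstream had 1.04 and 0.935. Another at 2168 bp (0.764) was called in replicate 1 alone and one at 3909 bp (0.463) in replicate 2 alone. These last peaks overlapped bases of the other library's FDR stretches, defined with the control windows below, 181 and 59 bases respectively. A peak of 0.449 at 7893 bp upstream, in replicate 1 alone, touched none.

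Igf2, a paternally expressed growth factor gene, was open only upstream. One peak near 5.5 kb upstream had signals of 1.98 in replicate 1 and 1.33 in replicate 2, and one at 9055 bp upstream had 1.39 and 1.18. They stood at percentiles 93.2 and 85.1 and at 87.0 and 81.4 of peaks outside promoters. No base within 500 bp of any of the 9 annotated Igf2 start sites was in an FDR stretch of either library. Zdbf2, a paternally expressed zinc finger gene, had 1 peak of 0.248 in an intron in replicate 1, at percentile 7.22, and none in replicate 2, whose nearest peak was 73906 bp away. None of its annotated start sites, and neither RefSeq start (chr1:63200358 and chr1:63273269), had a peak in either library.

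**Figure D2:**
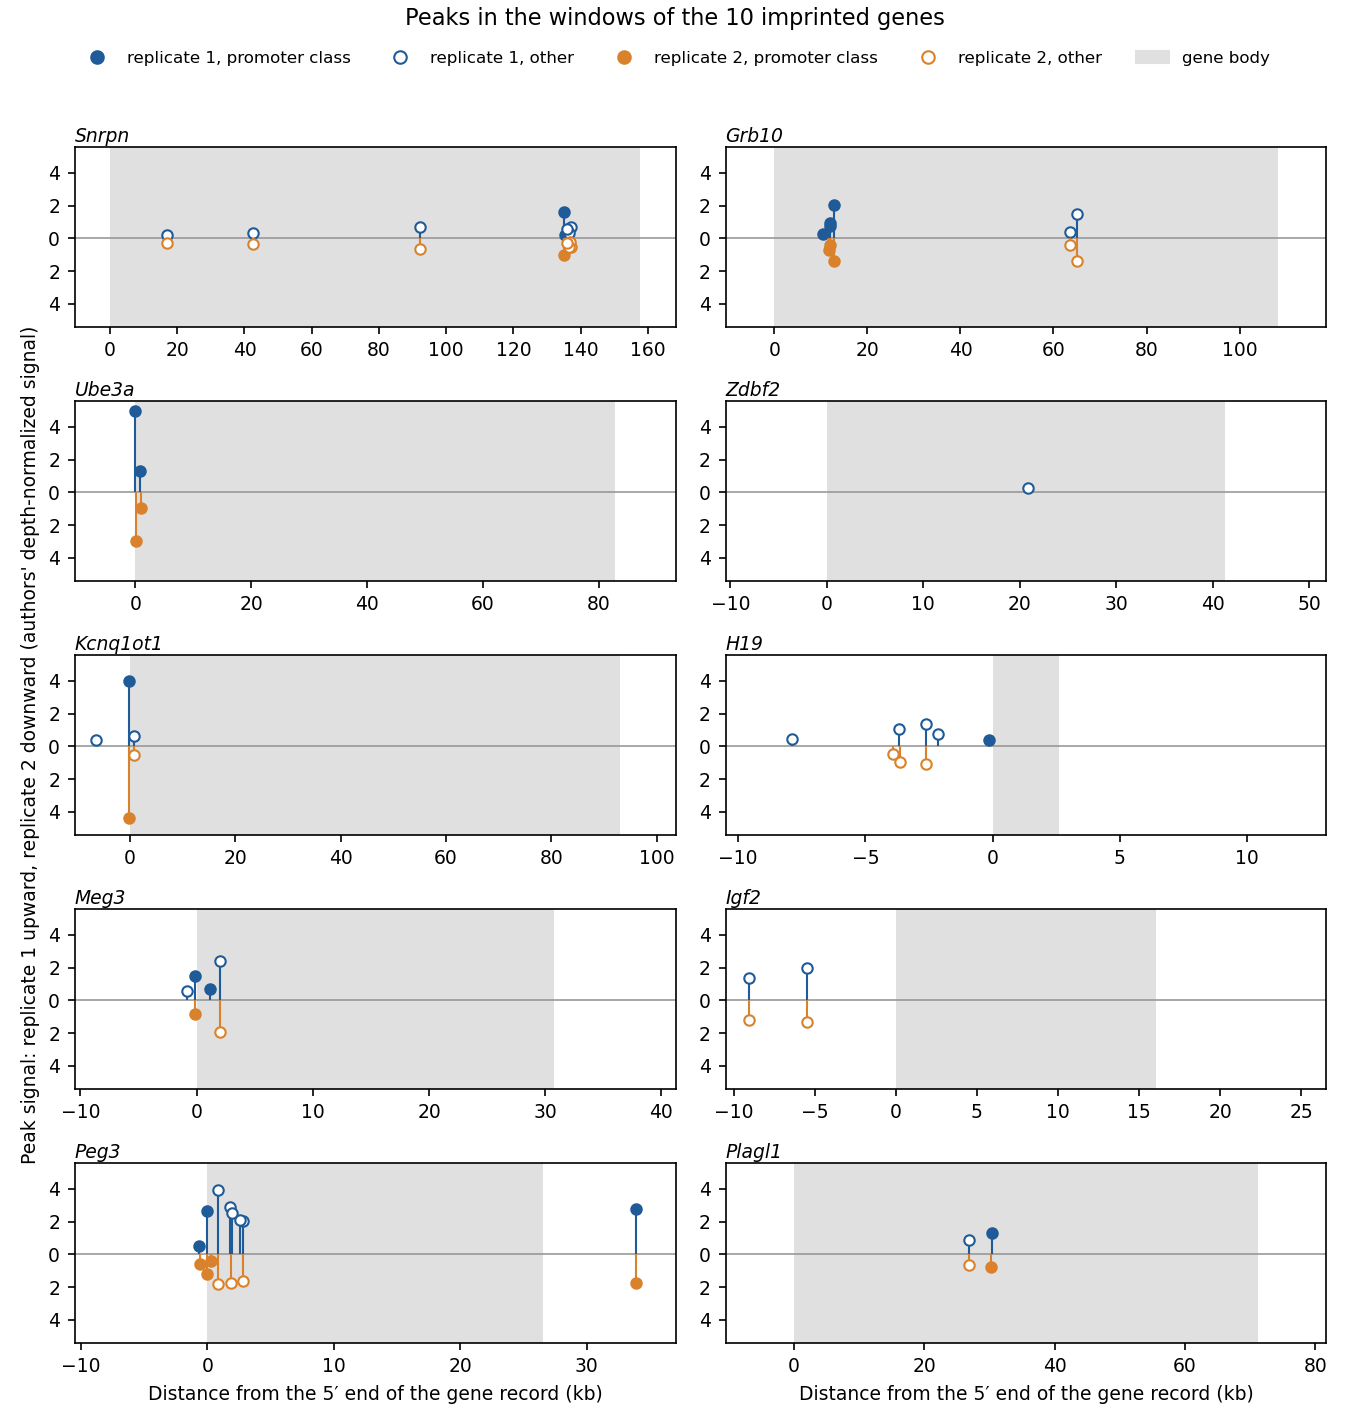
Peaks in the windows of the 10 imprinted genes by distance from the 5′ end of the gene record in kb (horizontal axis, in the direction of transcription, scaled for each gene) and the authors' depth-normalized signal (vertical axis), replicate 1 upward and replicate 2 downward. Filled circles are peaks within 500 bp of a TSS of any gene, open circles other peaks, and grey marks the gene body. The peaks of Ube3a and Kcnq1ot1 gather at the 5′ end, those of Grb10, Plagl1 and Snrpn lie inside the record, and those of Igf2 and H19 lie upstream.

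Control windows were set by distance from annotated start sites for 9 of the loci. They were the annotated TSSs ± 1000 bp for Snrpn, Kcnq1ot1, Peg3, Plagl1 and Grb10, 1000 to 5000 bp upstream of H19, 0 to 5000 bp upstream of Igf2, 10000 to 16000 bp upstream of Meg3 and 0 to 20000 bp upstream of Zdbf2. Ube3a is controlled from the Snrpn region and had none. A peak was present in both libraries at 6 of the 9 loci, namely Grb10, H19, Kcnq1ot1, Peg3, Plagl1 and Snrpn. Several loci had more than 1 window, and 6 of the 19 windows had a peak in both libraries. Except at H19, the windows with a peak surround the gene's own start sites and hold the promoter peak counted above. For scale, 58.2% of protein-coding genes had a peak within 500 bp of a TSS in both libraries, a narrower window than the one used here. In the Igf2, Meg3 and Zdbf2 windows neither library had a peak, a footprint or a base in an FDR stretch. The Igf2 window is not the control region of H19 and Igf2 described above, which was sought in the H19 window. The empty Igf2 window therefore does not show whether that region was open. The Zdbf2 window, chr1:63253265-63273264, does not reach the RefSeq start of Zdbf2 at chr1:63200358. The windows were placed by distance alone, so an empty one does not show that a control region was closed. The FDR stretches are bases that the authors' files list with a cut-rate FDR below 0.05, and they covered 1.11% of the genome in replicate 1 and 0.765% in replicate 2.

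The Peg3 promoter window had 71.1% of its bases in FDR stretches in replicate 1 and 60.9% in replicate 2. The internal Snrpn promoter had 58.6% and 44.9%, the internal Grb10 promoter 47.6% and 47.5%, and the Kcnq1ot1 promoter 38.6% and 38.9%. The internal Plagl1 promoter had 40.4% and 29.5%, and the H19 upstream window 31.5% and 26.0%. Over the whole gene windows the shares were lower, between 0.0946% (Zdbf2) and 8.90% (Peg3) in replicate 1 and between 0 (Zdbf2) and 8.11% (Peg3) in replicate 2. Fewer bases were covered at the other start sites of the same genes, with 0 in either library at the upstream Grb10 start sites and around the 5′ end of the long Snrpn record, and 7 bases (0.350%) in replicate 2 alone around the 5′ end of the Plagl1 record. Start sites are open at most protein-coding genes, and whether these shares are particular to imprinted start sites was not tested.

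**Figure D3:**
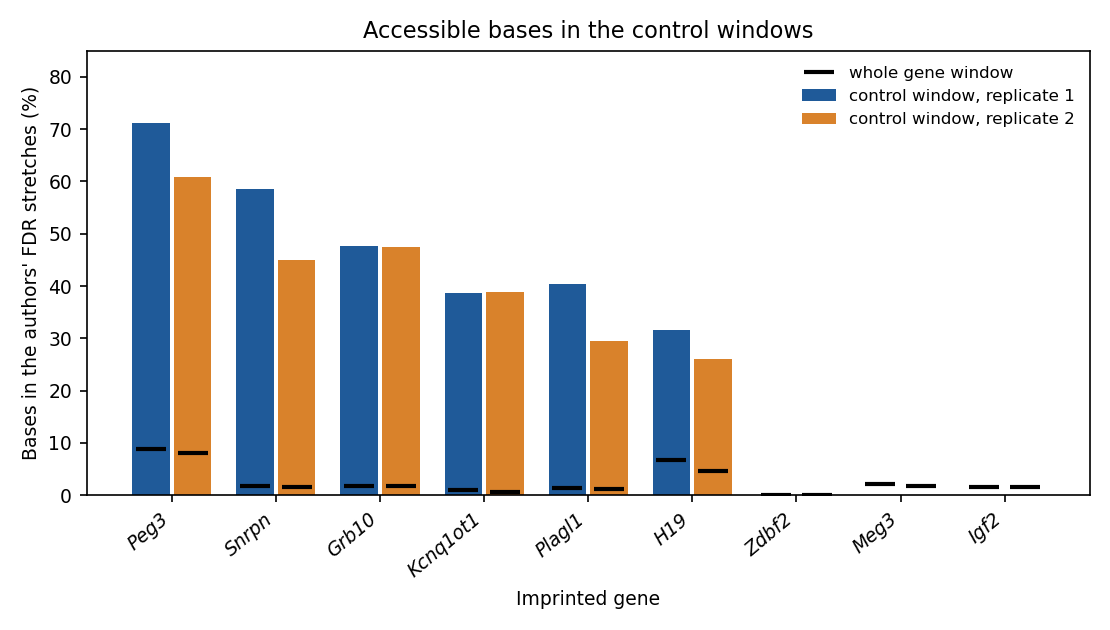
Share of bases in the authors' FDR stretches (vertical axis, %) in the most open control window of each of 9 imprinted loci (horizontal axis), with 1 bar for each library and a black line at the share over the whole gene window. Bars range from 26.0% at H19 in replicate 2 to 71.1% at Peg3 in replicate 1, and Zdbf2, Meg3 and Igf2 have no bar.

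Sequence letters in the open sites were counted in 300 bp centred on each peak, on both strands, and a match is a description of letters and not a bound site. The ZFP57 hexamer TGCCGC was in 12 of the 41 peaks in replicate 1 (29.3%) and 12 of the 33 in replicate 2 (36.4%), against 11.4% and 12.3% of all peaks. At least 2 copies were in 7 and 6 of them, against 1.47% and 1.63% of all peaks. Of promoter peaks, 5 of 16 in replicate 1 and 6 of 13 in replicate 2 held the hexamer, against 21.9% and 22.1% of all. Of other peaks 7 of 25 and 6 of 20 did, against 7.46% and 7.43% of all. Counted over the merged member regions the hexamer occurred 25 times in 7 genes, with 9 copies at Snrpn, 6 at Peg3 and 5 at H19, and 5 of the 25 lay in footprints of both libraries. Neighbouring peaks share windows, so these counts are not independent. Peaks at imprinted loci held a median of 10 CpG dinucleotides in each library, against 6 and 7 over all peaks. By class the direction differed. Promoter peaks at these loci held fewer, 14.5 in replicate 1 and 17 in replicate 2, against 21 in each library. Other peaks held more, 7 and 7.5, against 5 in each. The part of CpG content in the hexamer counts was not tested.

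YY1, a zinc finger regulator, has the core CCATNTT, which was in 11 of 41 and 8 of 33 peaks (26.8% and 24.2%, against 15.1% and 15.3%). Of promoter peaks 2 of 16 and 2 of 13 held it, close to the 12.9% and 13.5% of all. Of other peaks 9 of 25 and 6 of 20 did, against 15.9% and 16.2% of all. Of 18 copies in the merged regions, 11 lay at Peg3. All 11 were on the strand of Peg3 transcription, 10 read CCATCTT and 9 read CGCCATCTT. The longer form was in 0.809% of all peak windows in replicate 1 and 1.07% in replicate 2, and in 4 and 2 Peg3 peaks. It was looked for after the Peg3 sites had been seen. The 4 Peg3 sites that touched footprints of both libraries are shown in the direction of the motif, with the core in capitals, because each reads the longer form. At chr7:6727964-6727970 the footprints, chr7:6727958-6727966 in replicate 1 and chr7:6727970-6727977 in replicate 2, shared no base.
Peg3, chr7:6727964-6727970: ccacctgacgCCATCTTtgctgacgtt
Peg3, chr7:6728451-6728457: caatttggcgCCATCTTtgccagcaat
Peg3, chr7:6729483-6729489: ccgcttggcgCCATCTTgaaatgaccg
Peg3, chr7:6729589-6729595: ccagttggcgCCATCTTggagggtgga

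For CTCF the 13-letter consensus matched exactly in 0 peaks at the imprinted loci, against 5.25% of all peaks in replicate 1 and 6.86% in replicate 2. A shorter core, GGNGGCAG, was added after this was seen. It was in 6 of the 41 peaks in replicate 1, of which 1 was a promoter peak, and 6 of the 33 in replicate 2, again with 1 promoter peak. Over all peaks it was in 18.03% and 17.3% of promoter peaks and 15.8% and 16.2% of others. Of its 9 copies in the merged regions 5 were at H19, and each of the 4 H19 peak regions between 1000 and 5000 bp upstream held at least 1. They are shown in the direction of the motif with the core in capitals, and for the peak near 3.7 kb, which held 2, the copy in footprints of both libraries is given. Near 3.7 kb a copy of TGCCGC overlaps the core, so the counts of both motifs share bases there, and in the peaks at 2168 bp and 3909 bp a copy lies a few bases away without sharing any.
H19 peak at 2168 bp, chr7:142580309-142580316: gatgccgcgtGGTGGCAGtacaatacta
H19 peak at 2628 bp, chr7:142580764-142580771: gctaccgcgcGGTGGCAGcatactccta
H19 peak near 3.7 kb, chr7:142581790-142581797: gttgccgcacGGCGGCAGtgaagtctcg
H19 peak at 3909 bp, chr7:142582034-142582041: gttgccgcgtGGTGGCAGcaaaatcgat

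The sites in the peaks that both libraries called, at 2628 bp and near 3.7 kb, lay in footprints of both. At 2628 bp the footprint spanned 25 bases in replicate 1 and 23 in replicate 2 and covered the whole core. Allowing up to 2 mismatches to the long consensus in footprints widened by 5 bp, 9 of 142 footprints at the imprinted loci matched in replicate 1 (6.34%) and 7 of 107 in replicate 2 (6.54%), against 7.91% and 9.62% of all footprints. With up to 1 mismatch 6 of 142 (4.23%) and 4 of 107 (3.74%) matched, against 5.13% and 6.59% of all footprints. Among these, both Igf2 upstream peaks, the Meg3 exon peak and the Grb10 intron peak each held such a footprint in both libraries. They include the strongest non-promoter sites of the 3 genes, and their sequences, chosen after their values were seen, are shown with bases in footprints of both libraries in capitals.
Igf2, chr7:142672241-142672400: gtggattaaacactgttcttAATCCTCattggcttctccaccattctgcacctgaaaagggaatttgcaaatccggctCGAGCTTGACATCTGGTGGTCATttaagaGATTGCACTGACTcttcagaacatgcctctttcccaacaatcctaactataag
Igf2, chr7:142675761-142675980: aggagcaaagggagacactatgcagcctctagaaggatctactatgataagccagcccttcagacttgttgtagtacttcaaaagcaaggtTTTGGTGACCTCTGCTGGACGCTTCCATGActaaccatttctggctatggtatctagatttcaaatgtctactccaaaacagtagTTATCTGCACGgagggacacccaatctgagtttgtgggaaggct
Meg3, chr12:109542941-109543160: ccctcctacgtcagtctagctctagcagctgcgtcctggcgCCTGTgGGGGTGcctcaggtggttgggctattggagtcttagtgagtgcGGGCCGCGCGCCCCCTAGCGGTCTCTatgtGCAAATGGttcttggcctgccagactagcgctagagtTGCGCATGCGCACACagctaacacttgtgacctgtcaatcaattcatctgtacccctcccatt
Grb10, chr11:11973461-11973660: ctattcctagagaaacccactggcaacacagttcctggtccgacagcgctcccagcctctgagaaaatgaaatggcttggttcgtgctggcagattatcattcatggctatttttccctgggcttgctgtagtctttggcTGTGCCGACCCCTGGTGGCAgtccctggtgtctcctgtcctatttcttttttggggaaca

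In the Meg3 exon peak a copy of the NRF1 core at chr12:109543100-109543107 also lay in footprints of both libraries. With the 4 at Snrpn it made up the 5 copies in the merged regions. The core was in 5 of 41 and 5 of 33 peaks. TGACGTCA, the cAMP response element, was found at the promoters of Meg3 and Peg3 alone among the merged regions of the 10 loci, and each lay in a footprint of 1 library. It was in 2 of 16 promoter peaks at these loci in replicate 1 and 2 of 13 in replicate 2, against 2.33% and 2.60% of all promoter peaks.

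The Kcnq1ot1 promoter held the widest footprint of the 10 loci, 54 bases in replicate 1 (chr7:143296689-143296742) and 56 in replicate 2 (chr7:143296688-143296743). Only 146 of 234094 footprints (0.0624%) in replicate 1 and 61 of 154015 (0.0396%) in replicate 2 were at least as wide, and the median width was 10 bases in each. The longest run of capitals in the Kcnq1ot1 sequence above is this stretch. The promoter window also held 3 copies of CCAAT, counted on both strands, the letters bound by the trimeric factor NF-Y, and 2.96% of promoter peaks in replicate 1 and 3.26% in replicate 2 held as many. Peg3 had 2 copies, Meg3 had 1, and Snrpn, Ube3a, Grb10 and Plagl1 had 0. The H19 promoter peak of replicate 1 had 1. Any copy was in 30.8% of all promoter peaks in replicate 1 and 31.9% in replicate 2. These counts were made after the Kcnq1ot1 footprint had been seen.

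Footprints were most numerous at Peg3, with 49 in replicate 1 and 30 in replicate 2, or 105 and 64.5 per 100 kb. Protein-coding medians were 10 and 7 footprints, or 17.1 and 11.6 per 100 kb. Ube3a had 17 and 13, all within 500 bp of a TSS. Meg3 had 15 and 6, Snrpn 12 and 11, Kcnq1ot1 12 and 11, Grb10 12 and 14, Plagl1 10 in each, H19 7 in each, Igf2 7 and 5, and Zdbf2 1 and 0. Of the promoter peaks at these loci, 13 of 16 in replicate 1 and 9 of 13 in replicate 2 held a footprint, against 83.9% and 80.6% of all promoter peaks. Of the other peaks 24 of 25 and 17 of 20 did, against 76.3% and 73.1%.

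Replicate against replicate is the comparison that the design allows. Of the promoter peaks at imprinted loci, 12 of 16 (75.0%) in replicate 1 and 12 of 13 (92.3%) in replicate 2 were shared, meaning that they touched a peak called in the other library by 1 bp or more, against 75.1% and 88.9% of all promoter peaks. Of the other peaks 20 of 25 (80.0%) and 18 of 20 (90.0%) did, against 53.1% and 82.1%. The member peaks outside promoters were also stronger than all such peaks, with medians of 0.764 and 0.648 against 0.576 and 0.626, and sharing at matched strength was not tested. The 12 peaks called in 1 library only, 9 in replicate 1 and 3 in replicate 2, had signals from 0.232 to 0.764.

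In 28 of the 40 merged regions a peak was called in both libraries, and replicate 1 was stronger in 23 of the 28. The median log2 ratio of replicate 1 to replicate 2 was 0.39, against 0.32 ± 0.39 (median and SD over 52787 shared regions, of which 79.3% were stronger in replicate 1). Promoter regions had a median of 0.67 (11 regions) against 0.54 for all, and other regions 0.25 (17 regions) against 0.23. The Kcnq1ot1 promoter, with a log2 ratio of -0.13, stood at percentile 4.67 of promoter regions, and its ratio was 0.915 (95% interval 0.811 to 1.03, from steps taken as counts, counting error only). At the other end were the Peg3 intron region, 2.20 times as strong in replicate 1 (1.88 to 2.59, percentile 99.3 of other regions), and the Peg3 promoter, 2.18 times (1.79 to 2.66, percentile 96.6 of promoter regions). Neighbouring Peg3 regions did not share this ratio throughout, since the Usp29 exon region beside the promoter had a log2 ratio of -0.19.

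**Figure D4:**
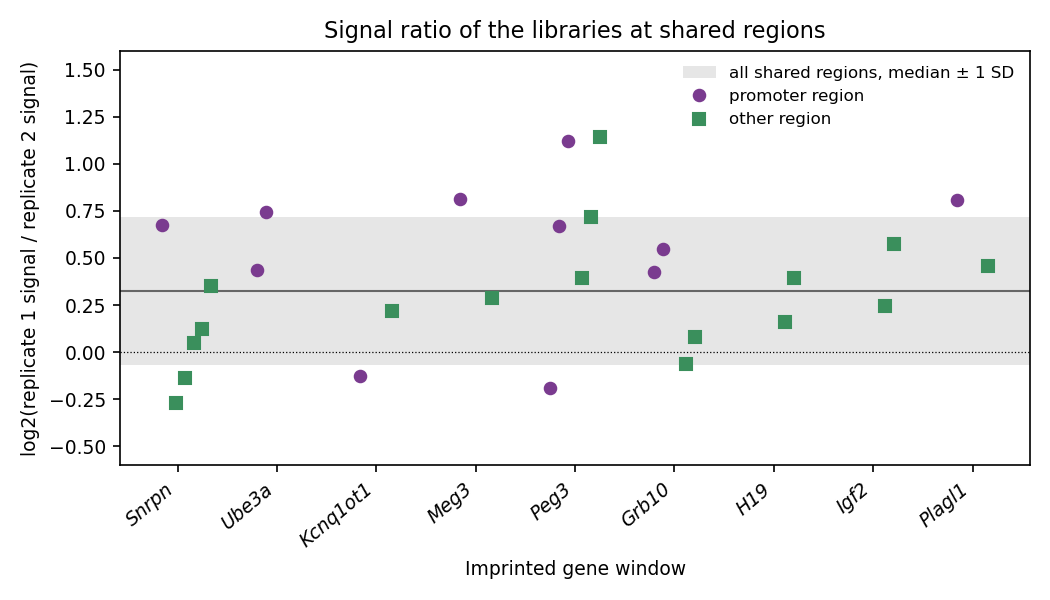
Log2 ratio of replicate 1 to replicate 2 signal (vertical axis) at the 28 merged regions called in both libraries, by imprinted gene window (horizontal axis), with promoter regions as circles and other regions as squares. The grey band is the median ± 1 SD over all shared regions (0.32 ± 0.39). The Kcnq1ot1 promoter (-0.13) is among the points below the band, and the Peg3 promoter (1.12) and intron region (1.14) are the highest points above it.

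Imprinted genes beyond these 10 were counted the same way. Among 18 genes, most of them with a promoter that holds or neighbours a germline methylated region, 15 had an open promoter in both libraries (16 in replicate 1 and 15 in replicate 2). The median over those with one was 1.61 and 1.13, against 2.69 and 1.86 for protein-coding genes. Peg10 and Sgce had equal signals in each library (1.39 and 0.841), so 1 peak may be counted for both. The highest mean signals were those of Inpp5f, a phosphoinositide phosphatase gene, at 4.76 and 2.26, Mcts2 at 4.05 and 1.75, and Zrsr1 at 2.48 and 2.05. Each value is the strongest peak at any annotated start site of the gene, which need not be the imprinted start. Slc38a4, an amino acid transporter gene, and Ndn, a neuronal growth regulator in the same imprinted cluster as Snrpn, had none in either library. Among 31 other imprinted genes, most of them controlled from a distance, 16 had one in both (20 in replicate 1 and 16 in replicate 2), led by Tssc4 (5.89 and 3.58), Commd1 (4.73 and 2.78) and Copg2 (3.96 and 2.37), with medians of 1.73 and 1.42. This count holds Usp29, whose promoter peak is the Peg3 peak described above, and Zim1, which lies in the Peg3 window. Without a promoter peak in either library were 11, among them Dlk1, Rtl1 and Rian, which neighbour Meg3, and Kcnq1, the potassium channel gene inside which Kcnq1ot1 starts. Shares of 15 in 18 and 16 in 31 stand above and below the 58.2% of protein-coding genes, and the difference between the lists was not tested.

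Of 10 genes for proteins that maintain imprints, 8 had a promoter peak in both libraries (9 in replicate 1 and 8 in replicate 2), with medians of 3.57 and 2.23. Of protein-coding genes 58.2% had one in both, and the medians were 2.69 and 1.86. Whether the values of the 10 genes are particular to imprint maintenance was not tested. Yy1 had 5.89 and 2.86, Dnmt1, the maintenance DNA methyltransferase, 5.65 and 2.68, and Trim28, the corepressor that ZFP57 recruits, 4.90 and 3.35. Zfp57 itself had a promoter peak of 0.830 in replicate 1 alone, and Dppa3, a germline and egg factor, had none in either library.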

How the data were processed

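DNase-seq was analysed from the files deposited for 2 libraries of 1 group. Per the deposited notes, peaks, footprints and cut-rate FDR values were called by the authors on mm10 alignments of each library separately, without pooling. The aligner, peak caller and versions: not given in the sources used here. Peak strength is the authors' deposited signal, normalized for read depth. The deposited FDR of the cut rate, on a p-value scale, is listed for stretches of bases. The deposited footprint files hold 1 constant value (another unit, not used), so positions alone were used. Each library has 2 deposited peak lists of unstated thresholds. The longer was used and the shorter (53068 and 36975 peaks) was the stricter alternative.

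Peaks and footprints were assigned by midpoint to GENCODE M21 genes (numpy 2.4.6, pandas 2.3.3), and called promoter features within 500 bp of any TSS. For the library ratio, overlapping peaks were merged into regions, with the maximum signal for each library. Sequences came from GRCm38.p6 (pysam 0.24.0) and RefSeq promoters. Overlap calls equalled those of bedtools 2.31.1 for 5000 simulated intervals, and 200 of 200 planted motifs were found in tests on simulated data. With 1 group of 2 libraries there was no test between groups, so values stand beside the same measure over all features. Ratio intervals are exact at 95% (scipy 1.17.1) and cover counting error only.

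Named were all 10 genes with their strongest promoter peak, strongest other peak and every control-window peak. Of the 3 lists of further genes, the 3 with the highest mean promoter signal and up to 4 without a promoter peak were named. Zfp57, Zim1, Usp29, Peg10 and Sgce were named after their values were seen. The members, lists and windows were chosen with earlier results of these data known. Alternatives were the stricter list, each library alone, other windows, overlap rules, strength measures and motif windows.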

Additional observations from a re-analysis of the deposited data

How the results depend on the processing

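Most values changed little with the processing. With the 5′ end of the gene record as the only TSS, 4 of the 10 genes instead of 7 had open promoters in both libraries, with a median signal of 2.95 instead of 1.70 (mean of both libraries). Snrpn, Grb10 and Plagl1 were lost by construction, since their open sites lie at internal starts. Without the 10 kb flanks the mean number of peaks was 24.5 instead of 37, and with 20 kb flanks it was 39.5. All peaks of the H19 and Igf2 windows lie in the flanks. Of all member peaks, 83.8% overlapped a peak of the other library, 92.9% with the stricter list and 73.0% with 50% reciprocal overlap, and the cause was not tested. Leaving out a library gave 7 to 8 genes with a promoter peak, 33 to 41 peaks, 107 to 142 footprints, median promoter signals of 1.21 (7 genes) to 1.81 (8 genes, H19 included), 31 to 36 other imprinted genes, 6 to 6 control loci and 12 to 12 peaks with TGCCGC. With the stricter list 25 instead of 31 other imprinted genes of both lists had one in both libraries. The median log2 ratio was 0.07 after division by each library's median and, in an alternative added after the data were seen, 0.32 without the Peg3 window. No paired analysis was possible because there is 1 group. The small number of libraries and the unstated signal scale limit precision, and no value separates the parental copies.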
